A study of Saccharomyces cerevisiae with 6 samples.

Results

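Cyclins and Cdk inhibitors set the activity of the cyclin-dependent kinase (Cdk) that drives the yeast cell cycle, and their transcripts were compared after 2 treatments of Saccharomyces cerevisiae. The 10 genes were the G1 cyclins CLN1, CLN2 and CLN3, the B-type cyclins CLB1, CLB2, CLB4, CLB5 and CLB6, and the Cdk inhibitors SIC1 and FAR1, taken by symbol from 5449 genes measured. Each of the 10 was read by 1 probe set. All 3 groups of 2 arrays came from cells labelled BY4741, a haploid laboratory strain, grown in the rich medium YPD. The compound CID 3528206, known here by its code alone, was given at 20 µM to the first group, rapamycin at 200 nM to the second and the vehicle DMSO at 1% to the third, each for 3 hours. The labels do not say if DMSO was present in the first 2 groups. The labels name duplicates but not separate cultures, so p-values measure the spread between these arrays, which may be technical.

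In budding yeast the main Cdk, the product of CDC28, binds different cyclins in turn. Cln3 starts the G1/S programme, in which the transcription factors SBF and MBF switch on CLN1, CLN2, CLB5 and CLB6. Clb5 and Clb6 drive DNA replication, and Clb1 and Clb2 drive mitosis with help from Clb4. Sic1 holds the Clb-bound kinase inactive until late G1, and Far1 blocks the Cln-bound kinase when cells answer mating pheromone. Rapamycin inhibits TOR complex 1 (TORC1), a growth-controlling kinase complex, and is known to arrest yeast cells in G1.

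The values are log2 RMA values, so a difference of 1 is 2-fold. The median of all genes lay between 10.08 and 10.11 on the 6 arrays. Background was taken from the probe sets of Schizosaccharomyces pombe, whose 95th percentile reached at most 4.38, and every value of the 10 genes lay above it. For 7 yeast genes with control probe sets at both ends, the 3' signal exceeded the 5' signal by a mean of 1.69 log2 units on CID 3528206 replicate 1 and by 0.91 to 1.14 on the other 5 arrays, a measure of RNA integrity or labelling. Its part in the results was not tested apart from the fits that leave it out or carry this difference as a covariate. Genes that mark alpha cells lay at 8.59 or above on all 6 arrays (5 of 5 measured), those that mark a cells, the mating type of BY4741, between 4.89 and 8.24 (7 of 7), and 4 genes deleted in BY4741 between 10.39 and 12.11. The strain is therefore named only as labelled. These are bulk samples, in which fewer cells in a stage of the cycle and less RNA per cell cannot be told apart.

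Both treatments lowered the S-phase cyclin CLB6, the inhibitor FAR1 and the G1 cyclin CLN2. The compound also lowered SIC1, CLB2 and CLB4, which rapamycin did not change past the test. Rapamycin also lowered CLB5 and raised CLN1 and CLB1. After the compound 0 of the 10 genes were higher, 6 lower and 4 not past the test, with a median log2 difference of -0.44 against -0.01 over all genes. After rapamycin 2 were higher, 4 lower and 4 not past it, with a median of -0.06 against -0.02. A gene was called where limma gave an adjusted p under 0.05, by Benjamini and Hochberg's method across all 5449 genes.

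These counts stand beside a broad background. The compound changed 50.5% of all genes by the same test, 26.1% higher and 24.4% lower, and rapamycin changed 52.7%, 26.5% higher and 26.2% lower. The 6 of 10 called against DMSO in each comparison lie near these shares. Set against each other, the treatments differed for 18.8% of all genes, and for 6 of the 10 cyclin and inhibitor genes. Arrays of the 2 groups did not overlap for 9 of the 10 genes between compound and DMSO (75.8% of all genes), for 6 between rapamycin and DMSO (84.9%), and for 7 between compound and rapamycin (63.5%). Calls of at least 2-fold numbered 1 of the 10, CLB6, after the compound (7.07% of all genes) and after rapamycin (8.46%), and 0 between the treatments (1.16%), where limma called 6 at any size.

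**Figure D1:**
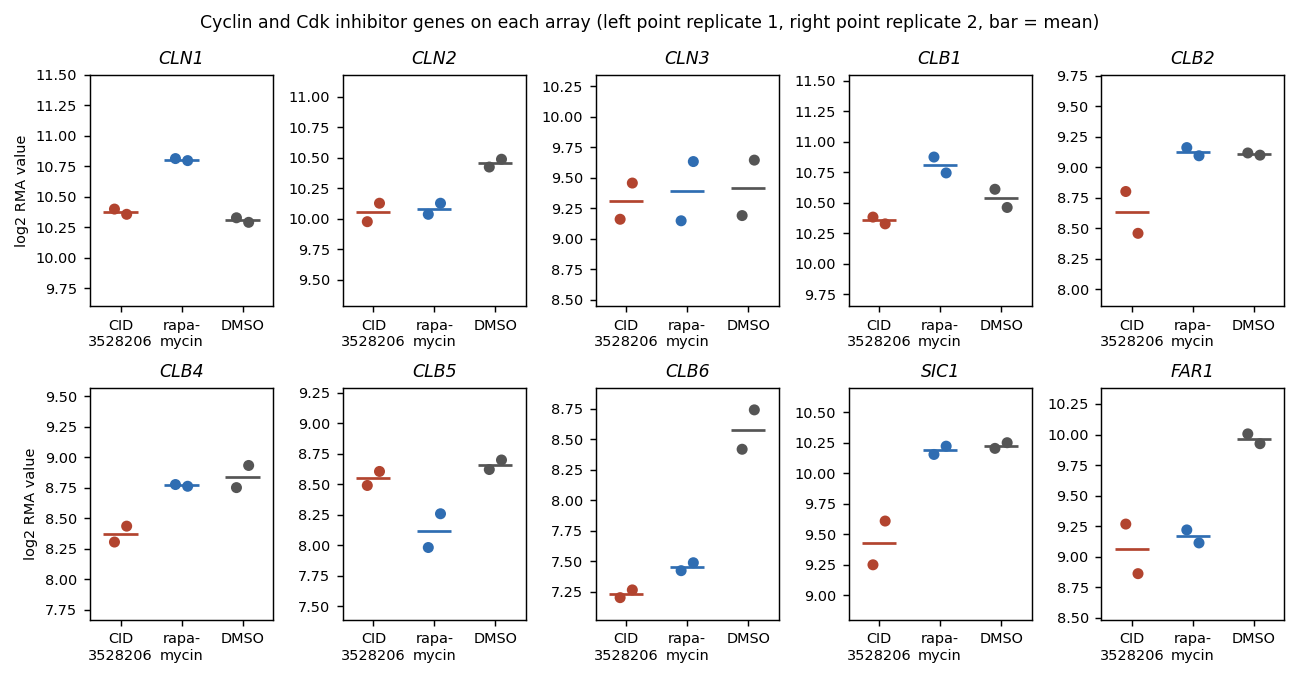
Log2 RMA value of each cyclin and Cdk inhibitor gene on each array, with points for the 2 replicates and a bar for their mean. CLB6 and FAR1 lay lower in both treated groups than in DMSO, SIC1 lay low in the CID 3528206 arrays alone among the 3 groups, and CLN1 lay high in the rapamycin arrays.

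The G1 cyclins did not move together. CLN1, which with CLN2 commits the cell to division, had levels of 10.40 and 10.36 in the compound arrays, 10.81 and 10.80 in the rapamycin arrays, and 10.33 and 10.29 in DMSO. Both rapamycin arrays lay above all 4 others, and replicates differed by at most 0.04. CLN1 rose 1.41-fold after rapamycin (0.50 ± 0.06, SE of the log2 difference, n = 2 arrays a group as throughout, limma adjusted p = 0.00143). After the compound its difference was 0.07 ± 0.06, with a 95% interval from -0.09 to 0.23 (limma adjusted p = 0.403).

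CLN2, the close relative of CLN1, had levels of 9.98 and 10.13 after the compound, 10.04 and 10.13 after rapamycin, and 10.43 and 10.49 in DMSO. All 4 treated arrays lay below both DMSO arrays. CLN2 fell 1.32-fold after the compound (-0.40 ± 0.08, limma adjusted p = 0.00858) and 1.30-fold after rapamycin (-0.37 ± 0.08, limma adjusted p = 0.0106). The treatments did not differ past the test, with a 95% interval of the difference from -0.23 to 0.17. The compound call ended without DMSO replicate 2 (adjusted p = 0.0695, range over the alternatives 0.00208 to 0.0695). The rapamycin call ended without DMSO replicate 1 (0.0508), DMSO replicate 2 (0.0798) or rapamycin replicate 1 (0.0839, range 0.00115 to 0.0839).

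CLN3, which acts upstream of both and whose protein is known to respond to nutrient supply, had levels of 9.16 and 9.46 after the compound, 9.15 and 9.63 after rapamycin, and 9.19 and 9.64 in DMSO. The 3 groups overlapped, and each held a low replicate 1 and a high replicate 2, 0.30 to 0.49 apart. The differences from DMSO were -0.11 ± 0.22 for the compound (limma adjusted p = 0.695) and -0.03 ± 0.22 for rapamycin (limma adjusted p = 0.926). The 95% intervals ran from -0.64 to 0.42 and from -0.56 to 0.50.

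Of the 2 S-phase cyclins, CLB6 showed the largest change among the 10 genes after each treatment. Its levels were 7.20 and 7.27 after the compound, 7.42 and 7.49 after rapamycin, and 8.42 and 8.74 in DMSO. The 4 treated arrays lay below both DMSO arrays. CLB6 fell 2.54-fold after the compound (-1.35 ± 0.11, limma adjusted p = 0.000368) and 2.18-fold after rapamycin (-1.12 ± 0.11, limma adjusted p = 0.000556). Changes at least as large in either direction were seen for 3.71% and 6.99% of all genes in these comparisons, and both calls held under every alternative in which CLB6 was tested. Compound and rapamycin arrays did not overlap, but their difference of -0.22 ± 0.11 did not pass (limma adjusted p = 0.209, 95% interval -0.50 to 0.06).

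CLB5, the partner of CLB6 in S phase, had levels of 8.49 and 8.60 after the compound, 7.98 and 8.26 after rapamycin, and 8.62 and 8.70 in DMSO. The rapamycin arrays lay below all others. CLB5 fell 1.45-fold after rapamycin (-0.54 ± 0.11, limma adjusted p = 0.0076), a call that ended without DMSO replicate 2 (0.0536, range 0.00222 to 0.0536). After the compound the difference was -0.11 ± 0.11 (limma adjusted p = 0.417, 95% interval -0.38 to 0.15). Set directly against rapamycin, CLB5 was 1.34-fold higher after the compound (0.43 ± 0.11, limma adjusted p = 0.0434), the sole one of the 10 genes called higher there.

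The mitotic cyclins were lower after the compound than after rapamycin. CLB2, the main mitotic cyclin, had levels of 8.80 and 8.46 after the compound, 9.16 and 9.09 after rapamycin, and 9.12 and 9.10 in DMSO. Rapamycin and DMSO arrays overlapped, and both compound arrays lay below them, 0.34 apart from each other. CLB2 fell 1.39-fold after the compound (-0.48 ± 0.12, limma adjusted p = 0.0172) and differed by 0.02 ± 0.12 after rapamycin (limma adjusted p = 0.9, 95% interval -0.27 to 0.31). The compound call ended without DMSO replicate 1 (0.0816) or 2 (0.0794, range 0.000431 to 0.0816).

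CLB1, the relative of CLB2 with which it shares its role in mitosis, had levels of 10.38 and 10.33 after the compound, 10.88 and 10.75 after rapamycin, and 10.61 and 10.46 in DMSO. The groups did not overlap, with rapamycin highest and the compound lowest. CLB1 rose 1.21-fold after rapamycin (0.27 ± 0.09, limma adjusted p = 0.0369), and its difference after the compound was -0.18 ± 0.09 (limma adjusted p = 0.124, 95% interval -0.39 to 0.03). With the 3' minus 5' control difference as a covariate the compound difference was -0.24 and passed (0.0496, the lowest adjusted p over its alternatives). The rapamycin call ended without DMSO replicate 1 (0.0648), DMSO replicate 2 (0.225), rapamycin replicate 1 (0.217), rapamycin replicate 2 (0.0756), or with all probe sets tested (0.0957), with a range of 0.0155 to 0.225.

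CLB4, which acts from S phase into mitosis, had levels of 8.30 and 8.43 after the compound, 8.78 and 8.76 after rapamycin, and 8.75 and 8.93 in DMSO. Here too the compound arrays were lowest while rapamycin and DMSO overlapped. CLB4 fell 1.39-fold after the compound (-0.47 ± 0.09, limma adjusted p = 0.00664), a call that ended without DMSO replicate 2 (0.0546, range 0.00284 to 0.0546). After rapamycin its difference was -0.07 ± 0.09 (limma adjusted p = 0.521, 95% interval -0.29 to 0.14).

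The 2 inhibitors behaved differently after rapamycin. SIC1 had levels of 9.25 and 9.61 after the compound, 10.15 and 10.22 after rapamycin, and 10.20 and 10.25 in DMSO. Both compound arrays lay far below the other 4, which spanned 0.10. SIC1 fell 1.74-fold after the compound (-0.80 ± 0.12, limma adjusted p = 0.00309), a call that held under all 18 alternatives. After rapamycin the difference was -0.04 ± 0.12 (limma adjusted p = 0.806, 95% interval -0.34 to 0.26). Sic1 is known to be controlled to a large extent through its breakdown, which these arrays do not measure.

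FAR1 had levels of 9.27 and 8.86 after the compound, 9.22 and 9.11 after rapamycin, and 10.01 and 9.92 in DMSO. Treated arrays lay below DMSO in every case, and the compound replicates, 0.41 apart, enclosed the rapamycin ones. FAR1 fell 1.87-fold after the compound (-0.90 ± 0.14, limma adjusted p = 0.003) and 1.74-fold after rapamycin (-0.80 ± 0.14, limma adjusted p = 0.00413). The treatments differed by -0.10 ± 0.14 and did not pass the test (limma adjusted p = 0.614, 95% interval -0.44 to 0.23). Without CID 3528206 replicate 1 this difference was -0.31 and passed (0.0387), and without replicate 2 it was 0.10 (0.316, range 0.0124 to 0.889). FAR1 is transcribed in haploid cells and induced by pheromone, and marker genes of mating type also moved. Of 5 alpha cell genes 5 fell after the compound and 3 after rapamycin, and 0 rose in either. Of 7 a cell genes 5 rose after the compound and 4 after rapamycin, and 0 fell in either. Beside these, 24.4% of all genes fell and 26.1% rose after the compound, and 26.2% fell and 26.5% rose after rapamycin. Without DMSO replicate 1 or 2 the 5 falls of alpha cell genes after the compound became 3, and without DMSO replicate 2 the 5 rises of a cell genes became 3. The summed log2 level of the alpha list was 53.5 to 54.3 after the compound, 55.0 to 55.5 after rapamycin and 60.7 to 61.3 in DMSO, and the part of these genes in the FAR1 result was not tested.

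**Figure D2:**
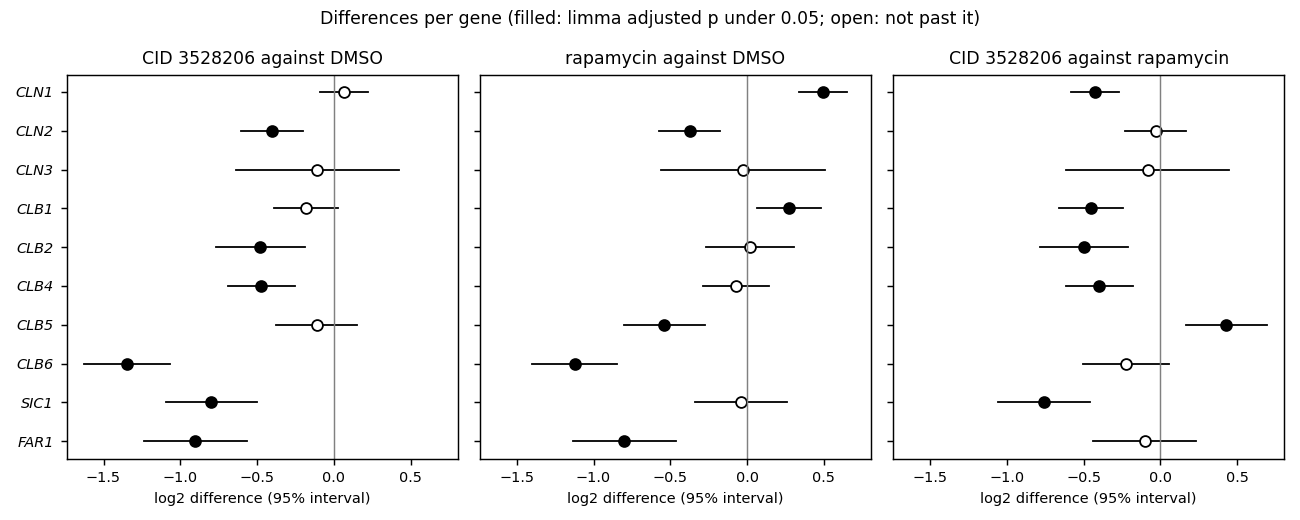
Log2 difference of each gene with its 95% interval from limma, not adjusted for the number of genes, in the 3 comparisons, with filled points for an adjusted p under 0.05. CLB6 lay furthest below 0 after each treatment, and 5 filled points lay below 0 between the compound and rapamycin.

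Set directly against each other, the treatments differed for CLN1, CLB1, CLB2, CLB4 and SIC1, all lower after the compound than after rapamycin, and for CLB5, which was higher. Against the 6 of 10 called here, 9.43% of all genes were called lower and 9.32% higher. The median log2 difference of the 10 genes was -0.31 and that of all genes -0.0029. SIC1 showed the largest difference, 1.69-fold lower (-0.76 ± 0.12, limma adjusted p = 0.0137), and 2.94% of all genes differed by as much. CLB2 was 1.41-fold lower (-0.50 ± 0.12, limma adjusted p = 0.0362), CLB1 1.37-fold (-0.45 ± 0.09, limma adjusted p = 0.0199), CLN1 1.34-fold (-0.43 ± 0.06, limma adjusted p = 0.011) and CLB4 1.32-fold (-0.40 ± 0.09, limma adjusted p = 0.0313). The concentrations of the 2 agents differ, so these are differences between the treatments as given. The CLB2 call also ended under quantile normalization of the genes tested (0.0558, range 0.00188 to 0.185).

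This direct comparison depended on single arrays for its count. Without rapamycin replicate 1 limma called 0 of the 10 genes and 105 of all genes, and without rapamycin replicate 2 it called 0 and 96, while 6 of the 10 had an unadjusted p under 0.05 in each of these fits and no other tool was run. Without DMSO replicate 1 or 2 it called 3 (CLN1, CLB1 and SIC1) and 397 of all genes. Without CID 3528206 replicate 1, the array that stood apart in its control probe sets, it called 7, FAR1 being added, and without CID 3528206 replicate 2 it called the same 6 as with all arrays. Against DMSO, leaving out CID 3528206 replicate 1 or 2 left the compound calls at the same 6 genes.

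Among the B-type cyclin genes, 2 pairs are direct neighbours in the R64 assembly of S. cerevisiae, CLB1 with CLB6 and CLB2 with CLB5. In each pair 1 gene belongs to mitosis and the other to S phase, and their systematic names place them on opposite strands. The neighbours had unlike values. After rapamycin CLB1 differed by 0.27 and CLB6 by -1.12, CLB2 by 0.02 and CLB5 by -0.54. After the compound CLB1 differed by -0.18 and CLB6 by -1.35, CLB2 by -0.48 and CLB5 by -0.11. Thus CLB2 was called after the compound and CLB5 after rapamycin, though the difference between genes was not tested.

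The Cdk and the proteins that act on it showed log2 differences between -0.88 and 0.59 after the compound and between -0.51 and 0.45 after rapamycin. Of 9 genes measured, 1 rose, 4 fell and 4 did not pass after the compound, and 2 rose, 3 fell and 4 did not pass after rapamycin. The median was -0.08 after the compound and -0.0038 after rapamycin. The test called 55.6% of this list after each treatment, near the 50.5% and 52.7% of all genes. The 4 falls after the compound became 3 without DMSO replicate 1 and 2 without DMSO replicate 2. After rapamycin 1 gene was called without DMSO replicate 1, 2 without rapamycin replicate 2, 7 without either CID 3528206 array, and 0 by limma without DMSO replicate 2 or rapamycin replicate 1, where 3 and 2 genes had an unadjusted p under 0.05. CAK1, the kinase that activates Cdc28, had levels of 8.25 and 8.52 after the compound, 8.72 and 8.81 after rapamycin, and 9.24 and 9.29 in DMSO. It fell by 0.88 after the compound (limma adjusted p = 0.00126) and by 0.51 after rapamycin (limma adjusted p = 0.00872), the second call ending without DMSO replicate 2 (0.0578) or rapamycin replicate 1 (0.0636, range 0.000303 to 0.0636). CDC28 itself fell by 0.48 after the compound (limma adjusted p = 0.012), which ended without DMSO replicate 2 (0.0799, range 0.000724 to 0.0799). After rapamycin CDC28 also lay below DMSO, at 10.297 and 10.347 against 10.605 and 10.695. HSL7, which helps remove the Cdk-inhibiting kinase Swe1, rose by 0.59 ± 0.10 after the compound (limma adjusted p = 0.00376). HSL7 also rose by 0.29 ± 0.10 after rapamycin (limma adjusted p = 0.0445), but the call was lost in 8 of 17 alternatives. These included all probe sets tested (limma adjusted p = 0.102) and quantile normalization of the genes tested (0.106). The call was also lost in each fit that dropped 1 array of the DMSO or rapamycin group, with rises of 0.26 to 0.32.

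Cyclins and inhibitors are destroyed after marking by the ubiquitin ligases SCF and APC/C. Of their 22 components and activators, 6 rose, 2 fell and 14 did not pass after the compound, and 10 rose, 0 fell and 12 did not pass after rapamycin, beside 26.1% and 26.5% of all genes that rose. After the compound, fewer rises and fewer falls were called without any single DMSO or rapamycin array. No falls were called without DMSO replicate 1 or without DMSO replicate 2. More of both were called without CID 3528206 replicate 1 or 2. The 10 rises after rapamycin became 3 and 5 without DMSO replicate 1 and 2, and 5 and 2 without rapamycin replicate 1 and 2. SWM1, an APC/C subunit, rose by 0.48 ± 0.09 after the compound (limma adjusted p = 0.0059). The APC/C subunit gene CDC23 rose by 0.52 ± 0.08 after rapamycin (limma adjusted p = 0.00232). Both genes lay above DMSO after both treatments. After rapamycin SWM1 was at 9.69 and 9.83, against 9.34 and 9.49 in DMSO. After the compound CDC23 was at 7.76 and 7.76, against 7.38 and 7.46 in DMSO. CDC20, an activator of the APC/C, was the 1 gene of the list called between the treatments, 0.44 log2 units lower after the compound (limma adjusted p = 0.0161). That call ended with all probe sets tested (0.0547) and without rapamycin replicate 1 (0.116) or 2 (0.129, range 0.00652 to 0.129), and the gene was named after its values were seen.

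Transcription regulators of these genes held the largest rise of the 8 lists described, that of XBP1, and also falls. Of 20 measured, 6 rose, 5 fell and 9 did not pass after the compound, and 7 rose, 3 fell and 10 did not pass after rapamycin. The shares called, 55% and 50%, lay near the 50.5% and 52.7% of all genes. The 6 rises after the compound became 3 without DMSO replicate 2, and the 5 falls became 9 without CID 3528206 replicate 2. The 7 rises after rapamycin became 4 without DMSO replicate 1, rapamycin replicate 1 or rapamycin replicate 2. The 3 falls became 1 without rapamycin replicate 1 and 9 without either CID 3528206 array. XBP1, a stress-induced repressor whose known targets include G1 cyclin genes, had levels of 8.06 and 8.21 after the compound, 8.69 and 8.64 after rapamycin, and 6.65 and 6.41 in DMSO. It rose 3.04-fold after the compound (1.60 ± 0.10, limma adjusted p = 0.000143) and 4.40-fold after rapamycin (2.14 ± 0.10, limma adjusted p = 4.02e-05). WHI5 encodes the repressor of SBF. WHI5 levels were 6.21 and 6.70 after the compound, 6.39 and 6.41 after rapamycin, and 6.95 and 7.32 in DMSO. All treated arrays lay below both DMSO arrays, and WHI5 fell by 0.73 after rapamycin (limma adjusted p = 0.0188). The call ended without DMSO replicate 2 (0.101), rapamycin replicate 1 (0.0823) or rapamycin replicate 2 (0.0771, range 0.000881 to 0.101).

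SWI5, an activator of SIC1 transcription at the end of mitosis, had levels of 8.21 and 8.22 after the compound, 8.93 and 8.94 after rapamycin, and 9.06 and 9.07 in DMSO. Replicates differed by at most 0.01, and the compound arrays lay below the rest. It fell 1.80-fold after the compound (-0.85 ± 0.06, limma adjusted p = 0.000219), while after rapamycin its difference was -0.13 ± 0.06 and did not pass (limma adjusted p = 0.122). Between the treatments it was 1.64-fold lower after the compound (-0.72 ± 0.06, limma adjusted p = 0.00275), also without any single array. The forkhead factor genes moved in opposite directions after the compound, FKH1 falling by 0.85 (limma adjusted p = 0.000991) and FKH2 rising by 0.59 (limma adjusted p = 0.00208). After rapamycin FKH1 also lay below DMSO, at 8.28 and 8.37 against 8.69 and 8.92. There FKH2 also lay above DMSO, at 9.31 and 9.20 against 9.08 and 9.02.

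**Figure D3:**
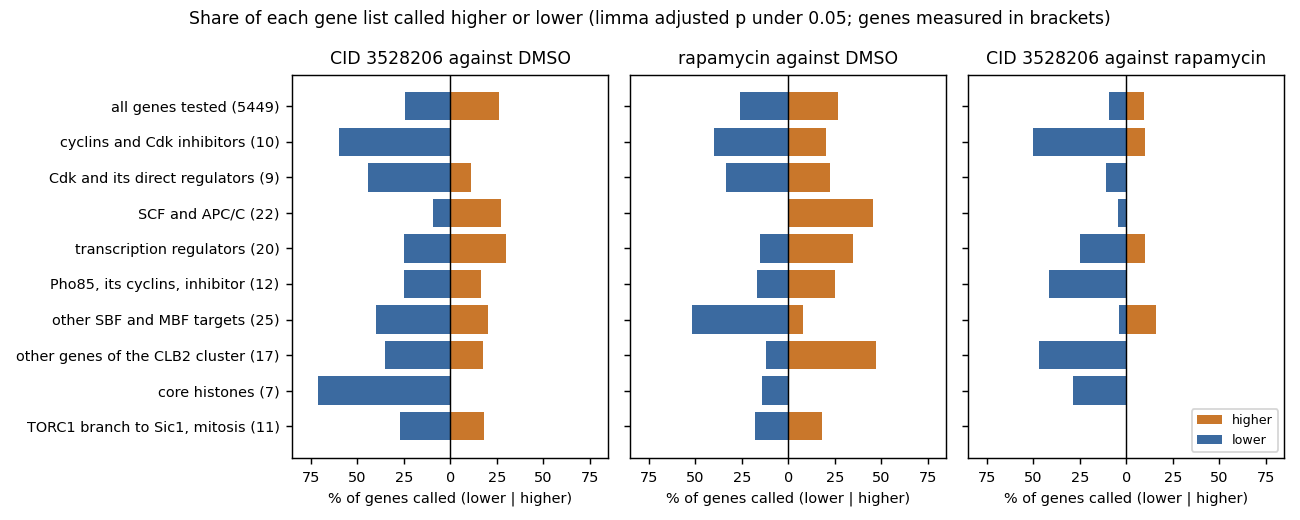
Share of each gene list called lower (left of 0) or higher (right of 0) by limma in the 3 comparisons, in percent of the genes measured, whose number is in brackets, beside all 5449 genes. After rapamycin 13 of 25 SBF and MBF targets were lower and 8 of 17 genes of the CLB2 cluster higher, and between the treatments 8 of the 17 genes of the CLB2 cluster were lower after the compound and 0 higher. Without 1 DMSO or rapamycin array the rapamycin counts were 5 to 8 and 3 to 5, and the 8 genes lower between the treatments became 1 to 4.

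The other genes of the waves to which the cyclins belong were counted in the same fits. The lists share genes, as CDC5, CDC20 and SWI5 of the CLB2 cluster were also counted in the lists above. Of 25 other SBF and MBF targets, which carry out DNA replication and budding, 5 rose, 10 fell and 10 did not pass after the compound. After rapamycin 2 rose, 13 fell and 10 did not pass. The median was -0.09 after the compound and -0.29 after rapamycin. Of all genes, 26.1% rose and 24.4% fell after the compound, and 26.5% rose and 26.2% fell after rapamycin. The 10 falls after the compound became 6 without DMSO replicate 1 or 2. The 13 falls after rapamycin became 7 without DMSO replicate 1 or 2, 5 without rapamycin replicate 1 and 8 without rapamycin replicate 2. TOS4, a regulator of G1/S genes, fell 2.09-fold after the compound (-1.06 ± 0.08, limma adjusted p = 0.000189) and 2.44-fold after rapamycin (-1.29 ± 0.08, limma adjusted p = 7.08e-05). GIC2, an effector of the polarity GTPase Cdc42, went the other way, 2.58-fold up after the compound (1.37 ± 0.07, limma adjusted p = 7.23e-05) and 2.77-fold after rapamycin (1.47 ± 0.07, limma adjusted p = 4.14e-05). The DNA ligase gene CDC9 had levels of 9.41 and 9.44 after the compound, 8.53 and 8.59 after rapamycin, and 9.77 and 9.65 in DMSO. It was 1.82-fold higher after the compound than after rapamycin (0.87 ± 0.07, limma adjusted p = 0.00265), a call that held without any single array. Of the 25 genes, 4 were higher, 1 lower and 20 not past the test in that direct comparison, beside 9.32% higher and 9.43% lower of all genes. The 4 became 1 without any 1 of the DMSO or rapamycin arrays and 7 without CID 3528206 replicate 1.

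Of 17 other genes of the CLB2 cluster, the wave expressed from G2 into mitosis, 3 rose, 6 fell and 8 did not pass after the compound, with a median of -0.08. After rapamycin 8 rose, 2 fell (TEM1 and BUD8) and 7 did not pass, with a median of 0.20. The test called 52.9% of these genes after the compound and 58.8% after rapamycin, beside 50.5% and 52.7% of all genes. The 3 rises after the compound became 1 without CID 3528206 replicate 1 and 0 by limma without any 1 of the DMSO or rapamycin arrays. At an unadjusted p under 0.05 there were 1 and 0 rises without DMSO replicate 1 and 2, and 3 without either rapamycin array. The 8 rises after rapamycin became 3 without DMSO replicate 1 or rapamycin replicate 1, and 5 without DMSO replicate 2 or rapamycin replicate 2. Between the treatments 0 were higher, 8 lower and 9 not past the test, with a median of -0.33 and beside 9.43% of all genes called lower. HOF1, which acts in cytokinesis, fell by 0.97 after the compound (limma adjusted p = 0.00481). HST3, a histone deacetylase gene, rose by 0.61 ± 0.07 after rapamycin (limma adjusted p = 0.000814). HST3 also lay above DMSO after the compound, at 8.64 and 8.71 against 8.41 and 8.44. CDC5, the polo kinase gene, rose by 0.45 ± 0.09 after rapamycin (limma adjusted p = 0.00904), which ended without DMSO replicate 1 (0.0518), DMSO replicate 2 (0.0596) or rapamycin replicate 1 (0.0704, range 0.000671 to 0.0704). Its difference after the compound was -0.02 ± 0.09 (limma adjusted p = 0.899). The 8 lower calls between the treatments became 1 without rapamycin replicate 1 or 2, 4 without DMSO replicate 1 or 2, 11 without CID 3528206 replicate 1 and 8 without CID 3528206 replicate 2.

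**Figure D4:**
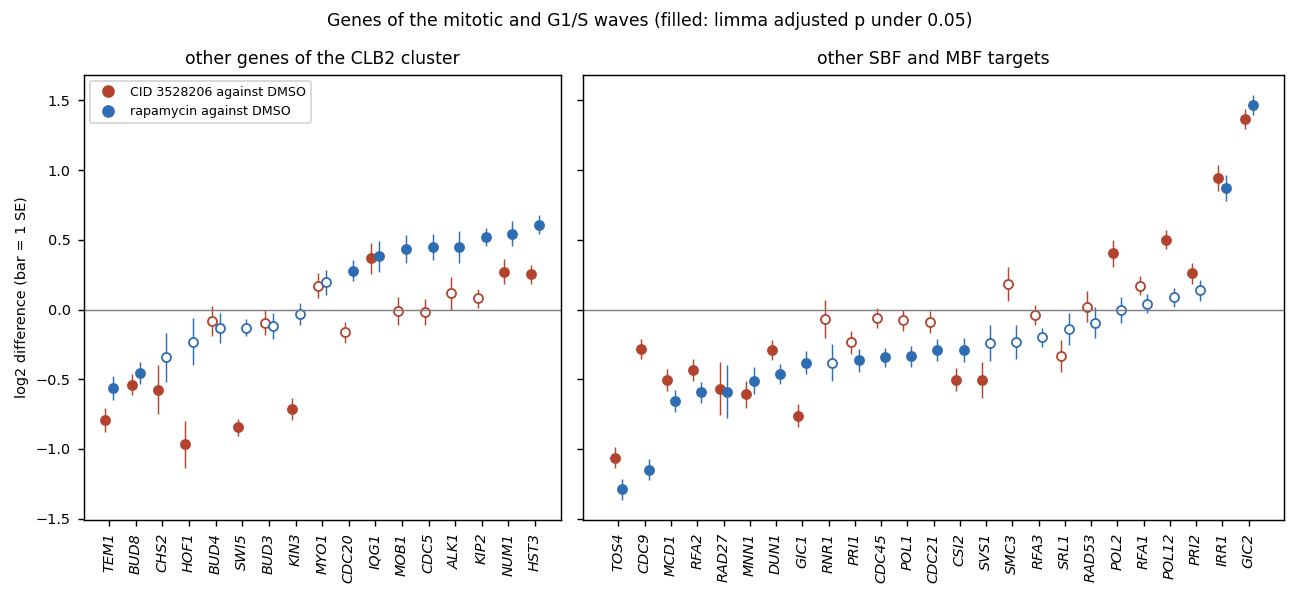
Log2 difference from DMSO of each gene of the CLB2 cluster and of the SBF and MBF targets, other than the cyclins, after CID 3528206 and after rapamycin, with bars of 1 SE and filled points for a limma adjusted p under 0.05, in the order of the rapamycin value. SWI5, HOF1 and KIN3 lay far lower after the compound, and CDC9 far lower after rapamycin.

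Of 7 core histone genes measured, whose transcripts peak in S phase, 0 rose and 5 fell after the compound. After rapamycin 0 rose and 1 (HTB2) fell. Of all genes, 24.4% fell after the compound and 26.2% after rapamycin. Without the probe sets whose names end in _s_at or _x_at, 5 of these histone genes were tested and 3 fell after the compound. The 5 falls after the compound became 2 without any 1 of the DMSO or rapamycin arrays or with all probe sets tested, and 3 without CID 3528206 replicate 1. HTB2 fell by 0.62 after the compound (limma adjusted p = 0.00209) and by 0.41 after rapamycin (limma adjusted p = 0.00899), the second call ending without DMSO replicate 1 (0.0599), DMSO replicate 2 (0.0557) or rapamycin replicate 2 (0.0736, range 0.00183 to 0.0736).

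Pho85 is a second Cdk, with cyclins of its own that tie it to phosphate, glycogen and G1 control. Of 12 genes for Pho85, its cyclins and its inhibitor, 2 rose, 3 fell and 7 did not pass after the compound. After rapamycin 3 rose, 2 fell and 7 did not pass. The test called 41.7% of them after each treatment, beside 50.5% and 52.7% of all genes. CLG1, a cyclin-like partner of Pho85, had levels of 12.76 and 12.81 after the compound, 13.09 and 13.06 after rapamycin, and 11.51 and 11.49 in DMSO. It rose 2.43-fold after the compound (1.28 ± 0.06, limma adjusted p = 6.61e-05) and 2.97-fold after rapamycin (1.57 ± 0.06, limma adjusted p = 2.63e-05). PCL9, a Pho85 cyclin gene of early G1, fell by 0.58 after the compound (limma adjusted p = 0.00391) and differed by 0.08 ± 0.09 after rapamycin (limma adjusted p = 0.488). PCL6, another Pho85 cyclin gene, fell by 0.57 after the compound (limma adjusted p = 0.00164) and by 0.48 after rapamycin (limma adjusted p = 0.00278). Between the treatments 0 of the 12 were higher and 5 lower after the compound, beside 9.32% higher and 9.43% lower of all genes. The 5 became 1 without DMSO replicate 1 or 2, 8 without CID 3528206 replicate 2, and 0 by limma without rapamycin replicate 1 or 2, where 6 and 4 had an unadjusted p under 0.05. The 3 genes that rose after rapamycin became 6 without either CID 3528206 array.

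A branch below TORC1 runs through the kinase Rim15 and the phosphatase PP2A with its subunit Cdc55 to Sic1 stability and mitotic entry. Of 11 genes of this branch 2 rose, 3 fell and 6 did not pass after the compound, and 2 rose, 2 fell and 7 did not pass after rapamycin. The shares called were 45.5% and 36.4%, beside 50.5% and 52.7% of all genes. By limma 0 of the 11 were called between the treatments, where 2 had an unadjusted p under 0.05, beside 18.8% of all genes called. Between the treatments 2 were called without CID 3528206 replicate 1 and 5 without CID 3528206 replicate 2. The 3 falls after the compound became 5 without CID 3528206 replicate 1. RIM15 rose 1.58-fold after the compound (0.66 ± 0.08, limma adjusted p = 0.00112) and 1.44-fold after rapamycin (0.53 ± 0.08, limma adjusted p = 0.00219). SLT2, the cell wall integrity kinase gene, rose by 0.66 ± 0.07 after the compound (limma adjusted p = 0.00099) and by 0.54 ± 0.07 after rapamycin (limma adjusted p = 0.00178). IGO2, a PP2A inhibitor gene that Rim15 acts on, fell by 0.76 after the compound (limma adjusted p = 0.00246) and by 0.66 after rapamycin (limma adjusted p = 0.0036).

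CLB6 was the gene with the largest difference from DMSO among the 10 in both comparisons, so the genes nearest to its pattern were sought once. Nearness was the Euclidean distance over the 6 arrays after each gene was centred on its DMSO mean, and the median distance to CLB6 over all genes was 2.49 log2 units. The nearest 4 were YLR297W (0.22), SRY1 (0.23), the aldehyde dehydrogenase gene ALD5 (0.31) and the hypoxanthine phosphoribosyltransferase gene HPT1 (0.31). Their log2 differences from DMSO lay between -1.39 and -1.25 after the compound and between -1.22 and -0.94 after rapamycin. With 6 arrays in 3 groups, such likeness describes these arrays and no more.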

How the data were processed

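Expression was measured on 6 Affymetrix arrays, 2 a group. The authors deposited log2 values made with RMA, per the submitters' processing notes. On software and settings nothing is given in the sources used here. RMA includes background correction and quantile normalization, so levels are relative to each array. Of 10928 probe sets, 5498 named 1 S. cerevisiae gene each. For 47 genes with several, the brightest on average was used, leaving 5449. Symbols came from the platform's probe table, 12 of them updated through the R64 gene table.

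limma 3.58.1 in R 4.3.3 fitted a mean per group on all 6 arrays with 3 residual degrees of freedom, two-sided, with Benjamini-Hochberg adjustment over all genes. Standard errors of log2 differences had a median of 0.0892, and the number of arrays limits the precision. Alternatives, 18 per comparison, changed 1 choice at a time, the variance prior being given a trend and made robust together.

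All 10 cyclin and inhibitor genes are named. From 8 other gene lists, up to 2 genes with the largest rise or fall past the test were named per comparison, others being chosen after their values were seen. Members and lists were chosen with earlier results of these data known. CIP1 and HHF2 had no value under these symbols and are not used here. A further list is not reported here.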

Additional observations from a re-analysis of the deposited data

How the results depend on the processing

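Directions and calls of CLB6, SIC1 and FAR1 after the compound, and of CLN1, CLB6 and FAR1 after rapamycin, held under every alternative at an adjusted p under 0.05 in which each was tested. Leaving out each array in turn gave 3 to 6 cyclin and inhibitor genes called after the compound, 3 to 6 after rapamycin and 0 to 7 between the treatments, and 1553 to 3552, 1794 to 3698 and 96 to 2646 of all genes in these comparisons. Such a fit leaves 1 group with 1 array, assumed to vary like the others. With the filter on low mean levels that leaves 3632 genes and 4 of the 10, the counts were 2, 3 and 3. At an adjusted p under 0.01 limma called 1706 and 1872 of all genes against DMSO, and between the treatments 214, with 0 of the 10 (6 at an unadjusted p under 0.05). Between the treatments, testing all probe sets gave 2 of the 10 and 381 of all genes, the 4 arrays of the comparison alone 3 and 397, and the 3' minus 5' control difference as covariate 1888 of all genes.

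Differences that turned sign were not past the test with all arrays. With that covariate CLB2 was -0.017, SIC1 5.9e-07 and CLN3 0.025 after rapamycin, CLN3 0.14 after the compound, and CLN2 0.042 and CLN3 0.12 between the treatments. Quantile normalization gave -0.039 for CLB2 after rapamycin. Leaving out single arrays, CLB2 ran from -0.014 to 0.053, CLB4 from -0.16 to 0.018 and CLN3 from -0.27 to 0.22 after rapamycin, with 0.20 as a further positive value of CLN3. CLN3 ran from -0.34 to 0.12 after the compound, with a further positive value of 0.039. Between the treatments CLN2 ran from -0.11 to 0.045, also positive at 0.015, CLN3 from -0.32 to 0.16, also positive at 0.066, and FAR1 from -0.31 to 0.10, -0.31 being past the test. The cause was not tested.

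With the replicate number as a block the calls remained the same 6 genes in each comparison, and 3082, 3195 and 1510 of all genes were called. The correlations of same-numbered deviations were 0.43 for the compound with DMSO, 0.25 for rapamycin with DMSO and 0.32 for the compound with rapamycin, over 2 numbers, too few to pair the arrays.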
